A study of Mus musculus with 9 samples.

Results

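The kappa V segments are the genes of the mouse immunoglobulin kappa locus that code for most of the variable domain of the kappa light chain. Every gene of the deposited log2 expression table whose name starts with Igkv was taken, which gave 92 segments of the 12849 genes in that table. The deposited count table lists 160 Igkv genes among 55536. The other 68 were left out by the filter on low counts: 29 of them had 0 counts in every library, 54 are annotated as pseudogenes, and together they held 0.531% to 1.31% of the Igkv counts of a library. Of the 92 segments, 86 are annotated as functional and 6 as pseudogenes. The filter asked for expression in at least 4 libraries, so a segment could pass through the p52Ki libraries alone: 62 segments were above its minimum in all 4 WT libraries, 30 in at most 3, and 4 in 0.

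The RNA came from B cells of the mouse spleen labelled pre-GC; the germinal centre (GC) is the structure in which activated B cells proliferate and mutate the genes of their antibodies. The 4 WT libraries are wild-type, and the 5 p52Ki libraries, titled p52ki/ki, carry a homozygous knock-in at p52, the NF-kB subunit cut from the Nfkb2 product. The sources used here do not give how the knock-in was made, the age of the mice, any immunisation or the sort. No label ties libraries to individual mice, so p-values describe only the spread among these libraries, some of which may be technical.

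A developing B cell builds its kappa gene by joining a V segment to a J segment upstream of the constant gene Igkc. Segments that lie in the same orientation as the J segments join by deleting the DNA between, and those in the opposite orientation join by inverting it. A cell can rearrange again, with a V segment farther upstream and a J segment farther downstream, or turn to the lambda locus, and a mature B cell as a rule makes a single light chain. The NF-kB family, to which p52 belongs, was named after a protein that bound the enhancer of the kappa gene in B cells.

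The sequences below are the last 96 bases of 7 segments, 5′ to 3′ in the coding direction, from the GENCODE M21 transcripts (build GRCm38). Capitals mark the stretch from the codon of the conserved second cysteine of the V domain to the end of the segment. The bases after that codon are the part that V contributes to the third complementarity-determining region, the loop that most varies between light chains. The sequences are those of segments named in the results: the 3 most abundant of the Igkv1 family, the largest segment of 2 other libraries, the segment that led a single p52Ki library, and a member of the Igkv5 family.
Igkv1-135: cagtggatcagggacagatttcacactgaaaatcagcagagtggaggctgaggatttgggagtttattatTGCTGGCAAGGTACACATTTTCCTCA
Igkv1-110: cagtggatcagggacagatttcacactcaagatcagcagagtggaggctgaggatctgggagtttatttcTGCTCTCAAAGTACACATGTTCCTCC
Igkv1-117: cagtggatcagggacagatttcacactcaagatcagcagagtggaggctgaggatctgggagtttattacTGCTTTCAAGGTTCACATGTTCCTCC
Igkv6-15: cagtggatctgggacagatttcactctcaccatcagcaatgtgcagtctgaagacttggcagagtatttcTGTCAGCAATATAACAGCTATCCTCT
Igkv19-93: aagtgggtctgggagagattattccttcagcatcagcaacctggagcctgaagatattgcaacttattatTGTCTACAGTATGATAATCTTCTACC
Igkv16-104: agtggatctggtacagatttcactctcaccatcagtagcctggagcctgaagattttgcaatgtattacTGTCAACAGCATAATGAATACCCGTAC
Igkv5-39: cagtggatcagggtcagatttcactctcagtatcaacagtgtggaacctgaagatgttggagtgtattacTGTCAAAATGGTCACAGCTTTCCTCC

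These stretches lie at chr6:67610413-67610508 (Igkv1-135), chr6:68271172-68271267 (Igkv1-110), chr6:68121732-68121827 (Igkv1-117) and chr6:68425977-68426072 (Igkv16-104) on the plus strand, the strand of the J segments. They lie at chr6:70406469-70406564 (Igkv6-15), chr6:68736297-68736392 (Igkv19-93) and chr6:69900424-69900519 (Igkv5-39) on the minus strand. All are coding sequence of the V exon. All 86 functional segments had a cysteine codon in a single open frame. The last such codon was taken as the conserved one, without an alignment. In 58 of these segments 26 bases ran from it to the end. Over their last 280 bases Igkv1-110 and Igkv1-117 were 96.8% identical, while each was 80.0% identical to Igkv1-135. Of the 92 segments, 46 had another segment at least 95% identical and 0 had one at least 99% identical, with a range from 73.9% to 98.9% (Igkv5-43 and Igkv5-45). How reads that match several segments were counted is not given in the sources used here, so levels within such groups are uncertain. The library method does not mark strand, and 0 of the 92 segments overlap another annotated gene.

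Kappa V transcripts were about 3 times as abundant in p52Ki as in WT. Levels are in CPM, counts scaled to a common library size with TMM factors. The 92 segments summed to 1001, 1114, 1410 and 1388 CPM in WT replicates 1 to 4. In p52Ki replicates 1 to 5 they summed to 4099, 4272, 3172, 3133 and 3711 CPM. The lowest p52Ki library was above the highest WT library. On average WT had 1229 ± 203 CPM (SD, n = 4) and p52Ki 3677 ± 521 CPM (SD, n = 5), a ratio of 2.99, with an exact two-sided permutation p = 0.00794, the smallest that 4 against 5 libraries allow, and 0.0288 after adjustment over the 29 single values tested. These levels rest on 7630 to 10461 Igkv counts per WT library and 17081 to 28233 per p52Ki library. In bulk RNA, more cells that express a segment and more RNA per cell cannot be told apart.

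**Figure D1:**
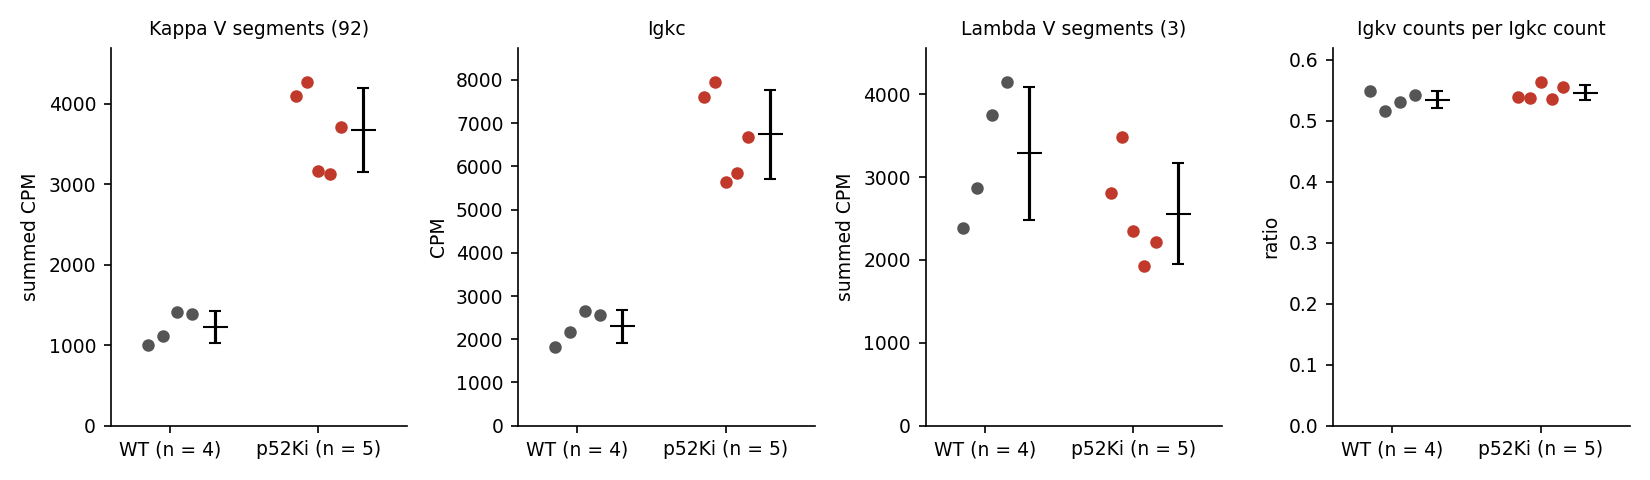
Summed CPM of the 92 kappa V segments, CPM of Igkc, summed CPM of the 3 lambda V segments, and Igkv counts per Igkc count, for each library (points; black marks show mean and SD, n = 4 WT and 5 p52Ki). Kappa V and Igkc were higher in every p52Ki library than in any WT library, lambda V overlapped, and the ratio of V to C counts lay between 0.516 and 0.563 in all 9.

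The constant gene moved with the segments. Igkc, which codes for the constant domain shared by every kappa chain, was at 2302 ± 383 CPM in WT and 6745 ± 1028 in p52Ki, with log2 fold change 1.55 ± 0.15 (SE) and adjusted p = 0.00072 by edgeR's quasi-likelihood test. Igkv counts per Igkc count were 0.534 ± 0.0139 in WT and 0.546 ± 0.0124 in p52Ki, a difference within the spread (exact permutation p = 0.222). Of the J segments, which lie between V and C and are short, Igkj3, Igkj4 and Igkj5 rose, with log2 fold changes 1.99, 1.97 and 1.68 (edgeR adjusted p = 0.0155, 0.00842 and 0.0124). Igkj1 at 1.13 and Igkj2 at 1.65 did not pass (adjusted p = 0.324 and 0.0815). Igkj levels were at most 30.2 CPM in any library, and a predicted gene, Gm30211, overlaps Igkj and Igkc on the same strand.

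The lambda V segments did not move with kappa. Iglv1, Iglv2 and Iglv3 together made up 3287 ± 803 CPM in WT libraries and 2555 ± 609 CPM in p52Ki libraries. Most of this was Iglv1, at 2778 ± 658 CPM in WT and 1861 ± 409 in p52Ki (log2 fold change -0.58, edgeR adjusted p = 0.0858). Iglv2 and Iglv3 went the other way, with log2 fold changes of 0.36 and 0.7, and did not pass either (edgeR adjusted p = 0.537 and 0.136). The log2 ratio of Igkv to Iglv counts was -1.25, -1.36, -1.41 and -1.58 in the WT libraries and 0.548, 0.294, 0.435, 0.706 and 0.742 in the p52Ki libraries, so the sign differed between all WT and all p52Ki libraries. The mean rose from -1.40 ± 0.135 to 0.545 ± 0.187 (exact permutation p = 0.00794, adjusted 0.0288). Against heavy chain V segments the rise was smaller. The log2 ratio of Igkv to Ighv counts went from -0.428 ± 0.209 to 0.682 ± 0.199 (exact permutation p = 0.00794, adjusted 0.0288), again with no overlap.

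Tested one by one with edgeR, 34 of the 92 segments (37%) were called higher in p52Ki at an adjusted p below 0.05, where 4.49% of all genes tested were called higher (8.53% in either direction). 0 segments were called lower (4.04% of all genes), and 0 were lower even at an unadjusted p below 0.05, where 59 were higher; limma-voom called 28 higher and DESeq2 53, and both called 0 lower. The fold change was above 0 for 88 segments (51.8% of all genes), with a median log2 value of 1.63 against 0.03 over all genes. CPM did not overlap between the genotypes for 42 segments, all higher in p52Ki, while 7.30% of all genes were higher without overlap. These counts cover segments that passed the filter, some of them only through p52Ki. Among the 62 above the minimum in all WT libraries, 30 were called, and among the other 30 segments, 4. The call count was 22 without p52Ki replicate 1, and the 34 called segments included 18 that were called in each of the 9 fits that left out 1 library.

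The segment with the largest share of the kappa V counts was Igkv1-135, which lies 3112 kb from Igkj1 and is the farthest of the 92. It held 6.86% of the counts on average over the 9 libraries, and it was also first per base of exon, with 6.45% of the length-scaled counts. Its level was 26.6, 76.9, 88.4 and 107 CPM in WT and 213, 379, 218, 274 and 317 CPM in p52Ki, with no overlap. The log2 fold change was 1.91 ± 0.35 (edgeR adjusted p = 0.00783). Igkv1-135 was the largest segment of 2 WT and 4 p52Ki libraries. Next per base came Igkv19-93 and Igkv6-15, at 4.41% and 3.92% of length-scaled counts.

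Igkv6-15, 316 kb from Igkj1, had the smallest standard error of the 20 segments named. It was at 45.5, 34.6, 47.2 and 55.7 CPM in WT and 118, 149, 135, 112 and 144 CPM in p52Ki. Every p52Ki value was above every WT value, and the log2 fold change was 1.52 ± 0.19 (edgeR adjusted p = 0.00182). Its share of Igkv counts was 3.75% ± 0.655 in WT and 3.62% ± 0.503 in p52Ki, so its rise in CPM left its share within the spread.

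The closely related Igkv1-110 and Igkv1-117 rose as well. Igkv1-110 was at 44.1, 46.6, 17.1 and 35.4 CPM in WT and 209, 186, 85.9, 160.3 and 146 CPM in p52Ki (log2 fold change 2.14 ± 0.33, edgeR adjusted p = 0.00395). Igkv1-117 was at 24.3, 24.6, 76.1 and 32.7 CPM in WT and 135, 162, 103, 107 and 200.3 CPM in p52Ki (log2 fold change 1.84 ± 0.37, edgeR adjusted p = 0.0119). Neither overlapped between genotypes, although WT replicate 3 was the lowest WT library for Igkv1-110 and the highest for Igkv1-117.

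Igkv19-93, the only member of its family, was more uneven. It was at 43.1, 24.8, 115 and 28.4 CPM in WT and 136, 139, 115, 243 and 159.9 CPM in p52Ki. WT replicate 3 stood at the level of p52Ki replicate 3. The log2 fold change of 1.59 ± 0.43 passed with all libraries (edgeR adjusted p = 0.0414), but the call was lost when any single library other than WT replicate 3 was left out (log2 values down to 1.35, adjusted p up to 0.101). Without WT replicate 3 the log2 value was 2.32.

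Among the other abundant segments, Igkv12-44 rose from 25.8 ± 12 to 116 ± 64.7 CPM, Igkv8-27 from 23.0 ± 10.2 to 106 ± 67.6 and Igkv10-96 from 29.0 ± 14.5 to 87.7 ± 23. Their log2 fold changes were 2.17, 2.21 and 1.59 (edgeR adjusted p = 0.0145, 0.0154 and 0.017). Igkv14-111 rose from 42.4 ± 9.12 to 127 ± 72.3 CPM (log2 1.59, edgeR adjusted p = 0.0327). Its call was lost without any 1 of the 4 WT libraries or of p52Ki replicates 2, 4 and 5, with log2 values down to 1.24 and adjusted p up to 0.0822. Igkv9-120 rose from 37.6 ± 16.4 to 93.8 ± 22.5 CPM (log2 1.32, edgeR adjusted p = 0.0219), and its call ended when WT replicate 1, 2 or 4, or p52Ki replicate 1 or 2, was removed (log2 values down to 1.13, adjusted p up to 0.0597).

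2 of the 12 segments with the highest mean share did not pass. Igkv6-23 was at 28.2, 36.8, 34.1 and 87.7 CPM in WT and 69.3, 87.3, 58.9, 122 and 169 CPM in p52Ki, where WT replicate 4 lay among the p52Ki libraries (log2 fold change 1.11 ± 0.40, edgeR adjusted p = 0.113). Igkv4-55 was at 32.2, 53.0, 15.4 and 84.3 CPM in WT and 114, 18.0, 41.0, 31.3 and 63.9 CPM in p52Ki. Its ranges overlapped broadly (log2 fold change 0.22 ± 0.55, edgeR adjusted p = 0.884). Its mean share of Igkv counts was 3.78% ± 2.14 in WT and 1.44% ± 0.887 in p52Ki.

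Several less abundant segments passed with small p. Igkv6-20 was at 9.58, 4.70, 3.70 and 0.796 CPM in WT and 40.4, 22.8, 29.1, 74.3 and 39.8 CPM in p52Ki, with no overlap (log2 fold change 3.13 ± 0.62, edgeR adjusted p = 0.0116). Without WT replicate 1 its log2 value was 3.75. Igkv8-21 rose from 6.75 ± 2.89 to 43.7 ± 28.3 CPM, Igkv4-59 from 19.0 ± 4.62 to 107 ± 65.5 and Igkv4-68 from 15.3 ± 7.55 to 72.5 ± 32.2 (log2 2.69, 2.49 and 2.25, edgeR adjusted p = 0.0137, 0.00456 and 0.0115). The call on Igkv8-21 was lost with limma-voom (log2 2.42, adjusted p = 0.0823). Igkv4-61, Igkv17-127 and Igkv3-2 had log2 fold changes of 2.33, 1.93 and 1.47 (edgeR adjusted p = 0.0124, 0.00866 and 0.0112). Igkv3-2 lies 23.5 kb from Igkj1, near the other end of the locus from Igkv1-135.

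A further 16 segments were called, and 15 of these had counts in WT, with log2 fold changes from 1.55 to 3.03. The remaining one, Igkv12-47, named here after its values were seen, is annotated as a pseudogene. It had 0 counts in all WT libraries and 120 counts over the p52Ki libraries (6.53, 0.529, 2.58, 1.53 and 9.99 CPM). Against a floor of 3 counts over the WT libraries it was at least 39.4-fold higher, a bound that covers counting error only. The 4 segments with a log2 fold change below 0 were Igkv12-98 at -0.98, Igkv4-69 at -0.50, Igkv4-58 at -1.26 and Igkv12-41 at -0.53, also named after their values were seen. None passed (edgeR adjusted p = 0.373, 0.824, 0.317 and 0.696), and their highest values were in WT replicate 2 for Igkv12-98, Igkv4-69 and Igkv12-41 and in WT replicate 3 for Igkv4-58.

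**Figure D2:**
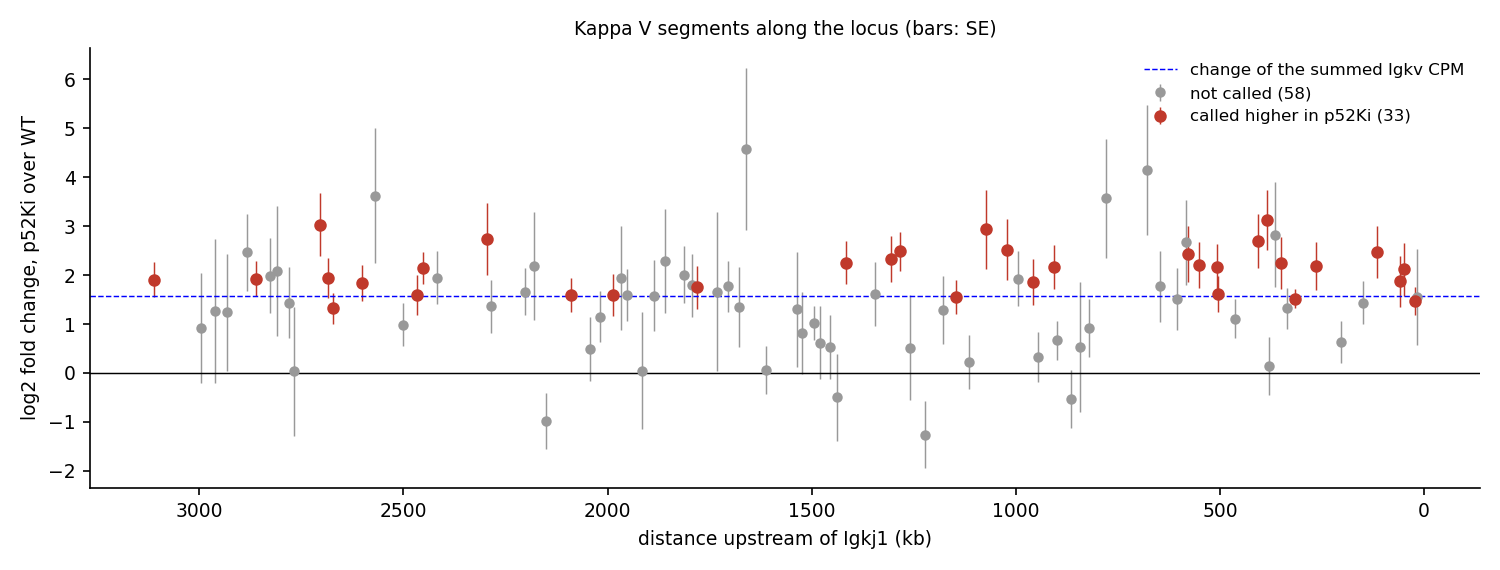
Log2 fold change (p52Ki over WT, edgeR, bars SE) of each kappa V segment against its distance upstream of Igkj1 in kb. Red marks the called segments with counts in WT (33), grey those not called (58), and the dashed line is the change of the summed Igkv CPM, 1.58. Igkv12-47, with 0 WT counts, is not drawn. Called segments lie along the whole locus.

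Shares within the kappa V counts separate how the repertoire was divided from how much of it there was. Across the 91 segments with counts in both genotypes, mean shares in WT and p52Ki had a Pearson r of 0.816 on the log2 scale and a Spearman rho of 0.827, a description across segments that share libraries and are not replicates. The 12 most abundant segments held 40.3% ± 2.98 of the counts in WT and 42.5% ± 5.45 in p52Ki. The share of 22 segments differed more than 2-fold between the genotype means, 10 higher in p52Ki and 12 lower. Some of the higher ones, named after their values were seen, passed the filter mainly through p52Ki. Igkv2-116 and Igkv8-34 were above its minimum in 0 WT libraries, and Igkv1-122, Igkv4-78, Igkv12-38 and Igkv8-18 in 1. On both sides some means rested largely on 1 library. The highest share was 5.16 times the next for Igkv16-104 (higher) and 8.37 times for Igkv4-69 (lower). These counts were not tested.

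The Bray-Curtis dissimilarity, which is 0 for identical shares and 1 for no segment in common, ran from 0.288 to 0.367 among WT libraries (median 0.333, 6 pairs). It ran from 0.236 to 0.322 among p52Ki libraries (median 0.260, 10 pairs) and from 0.241 to 0.415 between genotypes (median 0.319, 20 pairs). Pairs across the genotypes were therefore within the range of pairs inside them except at the high end.

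The effective number of segments, meaning the number of equally used segments that would give the same Shannon entropy, did not separate the genotypes. It was 54.7, 51.4, 42.8 and 50.3 in WT and 51.5, 47.1, 54.7, 47.7 and 51.0 in p52Ki. The means were 49.8 ± 5.05 and 50.4 ± 3.07 (exact permutation p = 0.802, adjusted 0.849). Without WT replicate 3, the lowest, the difference of p52Ki minus WT turned from 0.58 to -1.77, and without p52Ki replicate 3 to -0.488. The inverse Simpson index, which weights abundant segments more, was 35.6 ± 5.74 in WT and 34.2 ± 2.76 in p52Ki (exact permutation p = 0.635). The largest segment held 6.82% ± 1.6 of the counts in WT and 8.26% ± 0.807 in p52Ki (exact permutation p = 0.111).

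The number of segments seen did differ. At an equal depth of 7630 Igkv counts, 85.0, 87.9, 82.0 and 83.0 of the 92 segments were expected in WT and 90.8, 88.9, 91.9, 91.9 and 91.5 in p52Ki. The means were 84.5 ± 2.6 and 91.0 ± 1.24 (exact permutation p = 0.00794, adjusted 0.0288). Since the filter that chose the 92 could favour p52Ki, the same was computed over all 160 Igkv genes at 7678 counts, which gave 92.4 ± 0.537 in WT and 107 ± 3.05 in p52Ki (exact permutation p = 0.00794, not among the 29 adjusted values). Genes of every kind were also fewer in WT, with 14033 to 14793 genes detected per library against 15504 to 16634 in p52Ki, although WT libraries had more counts (7368604 to 7937579 against 4492160 to 6647650). The part of that wider difference in the number of segments seen was not tested.

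The heavy chain differed in this respect. The effective number over 89 Ighv genes was 17.5 ± 1.71 in WT and 49.7 ± 5.19 in p52Ki. The log2 ratio of the kappa to the heavy chain effective number fell from 1.68, 1.5, 1.48 and 1.38 in WT to 0.219, -0.0528, 0.098, 0.041 and -0.178 in p52Ki. The genotypes did not overlap (means 1.51 ± 0.123 and 0.0254 ± 0.15, exact permutation p = 0.00794, adjusted 0.0288).

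**Figure D3:**
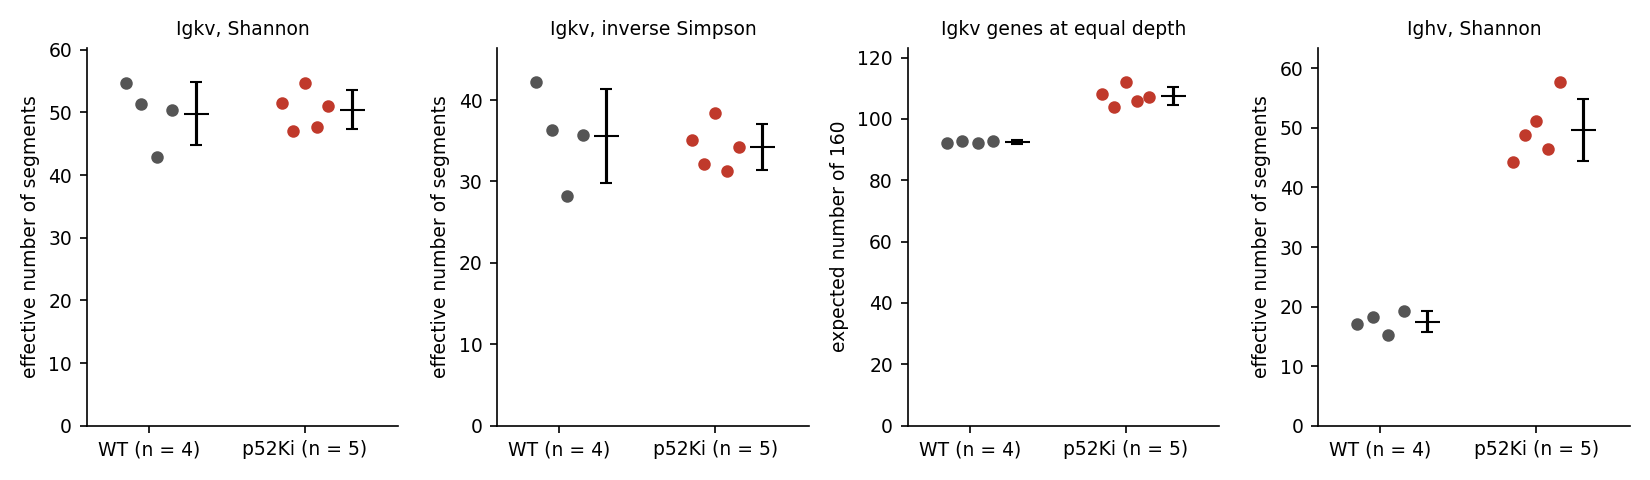
Shannon effective number and inverse Simpson index of the 92 kappa V segments, expected number of the 160 Igkv genes seen at 7678 counts, and Shannon effective number of 89 Ighv genes, per library (points; black marks show mean and SD, n = 4 WT and 5 p52Ki). The first 2 panels overlap between genotypes and the last 2 do not.

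The 92 segments fall into 17 families, by the number before the hyphen in the name. The mean CPM was higher in p52Ki for all 17, and 13 held at least 1 called segment. As shares of the Igkv counts, 15 of the 17 overlapped between the genotypes. The Igkv1 family held 10.3%, 14.0%, 13.7% and 13.5% in WT and 14.5%, 18.1%, 14.5%, 18.0% and 19.3% in p52Ki. The genotypes did not overlap, and the means were 12.9% ± 1.7 and 16.9% ± 2.22 (exact permutation p = 0.0317), but the adjusted p was 0.102. With Igkv1-135 left out of every library, an alternative added after seeing the data, the family held 6.29% to 7.91% in WT and 8.18% to 11.7% in p52Ki, again with no overlap (exact permutation p = 0.0159, unadjusted). With the largest segment of each library left out, the difference in means went from 4.01 to 1.3 percentage points (exact permutation p = 0.54, unadjusted). That setting removes Igkv1-135 from a larger part of the p52Ki libraries than of the WT libraries. Of the 8 Igkv1 segments, 4 were called: Igkv1-135, Igkv1-110, Igkv1-117 and Igkv1-122, the last at 1.52 ± 0.995 CPM in WT and 12.5 ± 3.78 in p52Ki. Igkv1-122, named after its values were seen, was above the filter minimum in 1 WT library and 5 p52Ki libraries. It was thus tested only because of its p52Ki level.

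The Igkv5 family was the exception in the other direction. It held 3.74%, 4.48%, 3.05% and 2.97% of Igkv counts in WT and 2.42%, 2.03%, 2.66%, 1.16% and 2.39% in p52Ki. Every p52Ki library was below every WT library (means 3.56% ± 0.705 and 2.13% ± 0.589, exact permutation p = 0.00794, adjusted 0.0288). Its share fell while its level did not, with a summed CPM of 42.9 ± 5.24 in WT and 79.0 ± 24.5 in p52Ki. 0 of its 4 segments were called. Igkv5-48, Igkv5-39, Igkv5-43 and Igkv5-45 had log2 fold changes of 1.93, 0.92, 0.67 and 0.32 (edgeR adjusted p = 0.054, 0.425, 0.377 and 0.798). All 4 lie between 822 and 995 kb from Igkj1 on the minus strand.

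The Igkv4 family, with 26 segments by far the most numerous, held 21.8%, 22.6%, 20.7% and 21.7% in WT and 24.6%, 13.8%, 14.9%, 14.1% and 22.1% in p52Ki. The WT libraries lay close together, while p52Ki libraries lay on both sides of them (means 21.7% ± 0.782 and 17.9% ± 5.05, exact permutation p = 0.159). The Igkv6 family held 10.5% ± 2.19 and 11.4% ± 2.89 (exact permutation p = 0.667), and 5 of its 8 segments were called. The Igkv8 family held 10.6% ± 1.99 and 11.5% ± 2.85 (exact permutation p = 0.643), with 4 of 9 called. The Igkv12 family held 4.76% to 16.0% of a WT library's Igkv counts and 5.12% to 10.4% of a p52Ki library's (exact permutation p = 0.357). For the remaining 11 families the exact p-values were 0.405 or above.

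**Figure D4:**
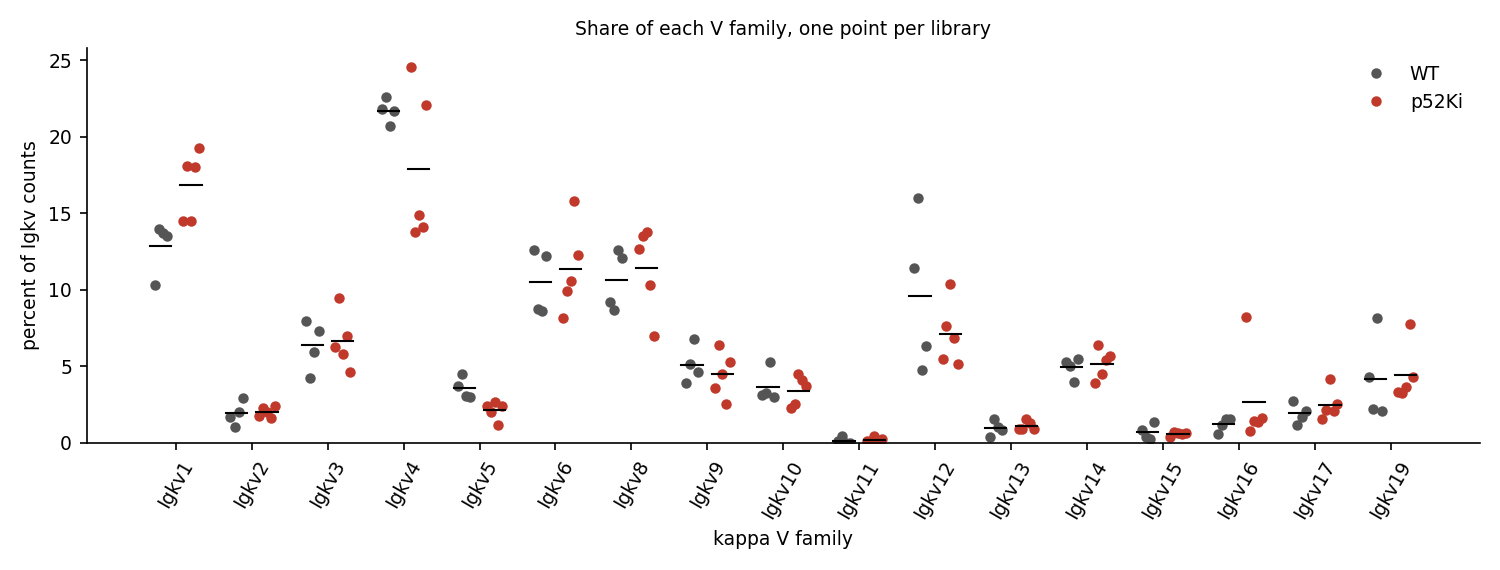
Share of each of the 17 kappa V families in the Igkv counts of a library, in percent (points are libraries, grey WT, n = 4, red p52Ki, n = 5; horizontal lines are means). Igkv1 lies higher and Igkv5 lower in every p52Ki library, while the other families overlap.

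Distance from Igkj1 did not separate the genotypes. The 46 segments farther from Igkj1 (from Igkv4-70 at 1454 kb outward) held 46.6% ± 3.81 of the counts in WT and 49.4% ± 2.86 in p52Ki (exact permutation p = 0.262, adjusted 0.584). Called segments numbered 12 among these 46 and 22 among the 46 nearer ones. By orientation, the 58 segments on the strand opposite to the J segments, which join by inversion, held 65.5%, 61.2%, 62.2% and 61.1% in WT and 57.6%, 55.2%, 59.3%, 57.0% and 57.9% in p52Ki. The genotypes did not overlap (means 62.5% ± 2.05 and 57.4% ± 1.51, exact permutation p = 0.00794, adjusted 0.0288). With Igkv1-135 left out of every library the shares were 66.4% ± 0.634 and 62.1% ± 1.43, still without overlap (exact permutation p = 0.00794, unadjusted). With the largest segment of each library left out, the difference in means went from -5.11 to -1.11 percentage points (exact permutation p = 0.54, unadjusted). That setting removes Igkv1-135 from a larger part of the p52Ki libraries than of the WT libraries. Igkv1-135, the largest segment in 6 of the 9 libraries, and 7 of the 8 Igkv1 segments lie on the J strand.

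The 6 pseudogene segments, which carry a defect that prevents a protein, held 1.28%, 2.12%, 1.48% and 0.994% of Igkv counts in WT and 0.737%, 0.727%, 0.860%, 0.685% and 0.954% in p52Ki. The WT and p52Ki ranges did not overlap, though WT replicate 4 and p52Ki replicate 5 lay close (means 1.47% ± 0.479 and 0.793% ± 0.112, exact permutation p = 0.00794, adjusted 0.0288). Over all Igkv pseudogenes of the count table the shares were 1.81% ± 0.455 and 1.12% ± 0.174 (exact permutation p = 0.00794). The most abundant of the 6 was Igkv4-77, named after its values were seen, with 10.4 ± 2.16 CPM in WT against 10.8 ± 4.99 in p52Ki (edgeR adjusted p = 0.969). Its share was 0.844% ± 0.143 in WT and 0.299% ± 0.15 in p52Ki. It held 0.765% of the Igkv counts in WT replicate 4 and 0.105% in p52Ki replicate 5. The rest of the pseudogene share was lower in WT replicate 4 than in p52Ki replicate 5. Without Igkv4-77 the ranges therefore overlap. Igkv4-77, Igkv4-73 and Igkv4-60 are nearest in sequence to the functional Igkv4-68, Igkv4-79 and Igkv4-53, so their shares are uncertain.

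Some libraries held a large share of a segment that was rare in the others. By a rule chosen after the values were seen (a highest share at least 3 times the next highest, and at least 1%), 9 segments stood out in this way. Igkv16-104 held 8.25% of the counts of p52Ki replicate 1, where it was the largest segment, and at most 1.6% elsewhere. It was at 5.91, 12.6, 21.8 and 21.9 CPM in WT and 338, 33.7, 45.1, 41.8 and 59.3 CPM in p52Ki. The log2 fold change was 2.74 ± 0.74 (edgeR adjusted p = 0.0419) with all libraries and 1.53 without p52Ki replicate 1. The call was lost without that library, without any 1 of the 4 WT libraries, and without p52Ki replicate 3 or 5 (adjusted p up to 0.099). It was also lost with limma-voom.

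WT replicate 3 held 7.63% Igkv8-19 (at most 2.01% in another library) and 6.72% Igkv4-58 (at most 1.72%). WT replicate 2 held 5.04% Igkv12-98 and 4.06% Igkv4-69, against at most 1.55% and 0.485% elsewhere. In p52Ki, replicate 1 also held 4.37% Igkv4-53 and 1.41% Igkv12-38, replicate 2 held 2.29% Igkv4-78, and replicate 3 held 1.24% Igkv9-129. Igkv4-53 was called at a log2 fold change of 2.94 (edgeR adjusted p = 0.0435), which fell to 1.72 without p52Ki replicate 1; the call held only when p52Ki replicate 2 was the library left out. The biological coefficient of variation, edgeR's measure of spread between libraries of a genotype, had a median of 0.58 over the 92 segments (range 0.212 to 1.66) and 0.426 over all genes.

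**Figure D5:**
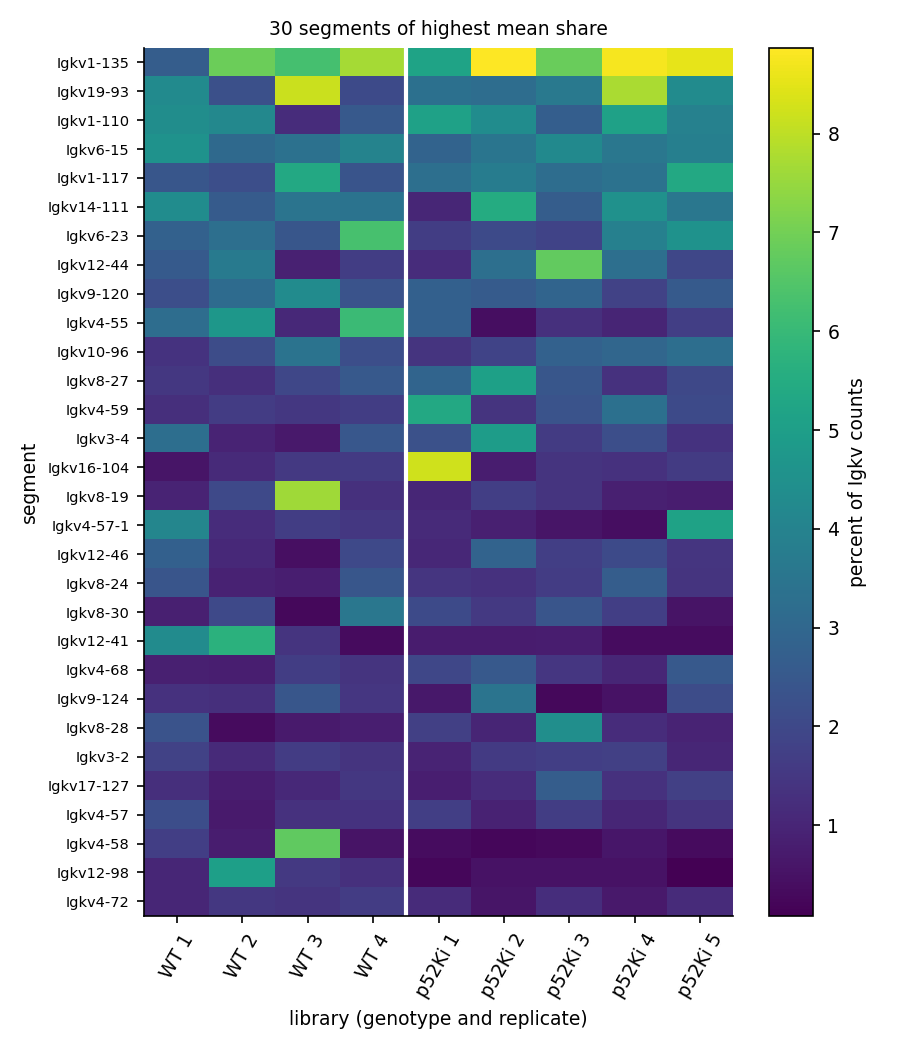
Percent of Igkv counts held by each of the 30 segments of highest mean share (rows) in each library (columns; WT left of the white line, p52Ki right). Igkv1-135 is high in nearly every library, while Igkv16-104 in p52Ki replicate 1 and Igkv8-19 and Igkv4-58 in WT replicate 3 are bright in a single library.

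Genes that act on the kappa locus were read from 3 lists. Of 19 regulators of kappa transcription, 4 were higher in p52Ki and 1 lower, with a median log2 fold change of 0.13. Over all genes tested, 4.49% were called higher and 4.04% lower, and the median was 0.03. Irf4, which with the ETS proteins PU.1 and SPI-B binds the 3′ kappa enhancer, was at 34.6 ± 8.37 CPM in the WT libraries and at 149 ± 42.5 in p52Ki (log2 fold change 2.11 ± 0.26, edgeR adjusted p = 0.00172). The NF-kB subunit gene Rel rose from 153 ± 28.5 to 316 ± 83.8 CPM (log2 1.04, edgeR adjusted p = 0.0154), and Spib from 970 ± 148 to 1510 ± 236 CPM (log2 0.64, edgeR adjusted p = 0.023). Pou2f2, which codes for the octamer-binding protein OCT2 and is named after its values were seen, had log2 0.67 (edgeR adjusted p = 0.0345). Pou2af1, the B cell coactivator of octamer-binding proteins, fell from 791 ± 129 to 492 ± 90.6 CPM (log2 -0.68, edgeR adjusted p = 0.0255). The call on Spib needed WT replicates 3 and 4 and p52Ki replicates 1 and 3, each of which ended it when left out. Pou2af1 likewise needed WT replicates 1 and 4 and p52Ki replicates 1 and 3. Among the fits that left out 1 library, Pou2f2 kept its call only without p52Ki replicate 2. It also lost the call with limma-voom and with no filter on low counts. Nfkb2, the source of p52, had 136 ± 34 and 208 ± 40.9 CPM (log2 0.61, edgeR adjusted p = 0.0987). These RNA levels do not check the knock-in itself.

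Of 12 genes of light chain recombination, editing and the lambda locus, 10 could be tested, with 3 higher and 0 lower in p52Ki. The shares over all genes tested were 4.49% higher and 4.04% lower. Iglc2 and Iglc3, near-identical lambda constant genes whose reads may be shared, had log2 fold changes of 1.25 and 1.08 (edgeR adjusted p = 0.00487 and 0.0135). Iglc1, the constant gene used with Iglv1, was at 3264 ± 899 CPM in WT and 2089 ± 496 in p52Ki (log2 -0.64, edgeR adjusted p = 0.0783). Rag2, a subunit of the recombinase that joins V to J, had 0 counts in WT and 194 over p52Ki, at 8.71, 5.47, 10.7, 0 and 8.04 CPM. It was at least 63.7-fold higher against a floor of 3 counts over the WT libraries, a bound that covers counting error only (edgeR adjusted p = 0.0291). The call was lost with limma-voom and when any 1 WT library was left out. Rag2 could be tested in only 11 of 16 alternative settings. Rag1, its partner, named after its values were seen, was at 0, 2.08, 0.427 and 0 CPM in WT and 14.8, 1.76, 5.33, 3.52 and 7.39 in p52Ki (log2 3.36, edgeR adjusted p = 0.157).

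Of 12 genes of somatic hypermutation, the process that changes bases of rearranged V segments, 6 were lower in p52Ki and 0 higher. The shares over all genes tested were 4.04% lower and 4.49% higher. Hmces, Ung and Exo1, which act on damaged or mismatched DNA bases, had log2 fold changes of -1.70, -1.15 and -1.43 (edgeR adjusted p = 0.00209, 0.016 and 0.018). Ung lost the call without WT replicate 1, and Exo1 without WT replicate 4. The part of hypermutation in the Igkv counts was not tested.

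Cell type markers were read beside the kappa V level, and their lists did not all go the same way. Over all genes tested, 4.49% were called higher in p52Ki and 4.04% lower. Of 7 germinal centre B cell markers, 5 were lower in p52Ki, with summed levels of 2131 to 2839 CPM in WT and 524 to 1230.1 CPM in p52Ki. Of 6 resting follicular B cell markers, 5 were higher, with 592 to 819 CPM in WT and 1307 to 1942 CPM in p52Ki. Germinal centre markers were thus present in all 9 libraries labelled pre-GC. Marginal zone and B-1 markers had 2 of 7 higher, with 245 to 499 and 503 to 706 CPM. Plasma cells, which make far more light chain RNA than other B cells, had 2 of 9 tested markers higher and 2 lower. Fkbp11 was at 0.14 ± 0.162 CPM in WT and 4.1 ± 2.01 in p52Ki and Tnfrsf13b at 337 ± 46.4 and 489 ± 60.2 (edgeR adjusted p = 0.034 and 0.0377). Jchain, which links secreted antibody units, was lower at 1252 ± 194 and 562 ± 202 CPM, and Slamf7 at 216 ± 34.8 and 118 ± 32.5 (edgeR adjusted p = 0.0116 and 0.0243). The summed markers were 2165 to 2486 CPM in WT and 1294 to 1997 CPM in p52Ki, and without Jchain 961 to 1088 and 895 to 1221 CPM, which overlapped. Of those not called, and named after their values were seen, Tnfrsf17 was at 0 in WT and 0.0613 ± 0.137 CPM in p52Ki, Sdc1 at 1.21 ± 2.42 and 22.0 ± 11.5 CPM (edgeR adjusted p = 0.0762) and Prdm1 at 7.40 ± 4.67 and 8.18 ± 6.78 CPM. The 5 pan-B cell markers summed to 8711 to 9912 CPM in WT and 9846 to 13441 in p52Ki (1 higher, 0 lower). T cell markers summed to at most 16.5 CPM, erythroid to at most 21.1 CPM and myeloid to at most 94.5 CPM in any library. The part of these cell types in the kappa V difference was not tested.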

How the data were processed

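The RNA was made into full-length cDNA with 17 PCR cycles by SMARTSeq v2, and Nextera XT libraries were read as 2x151 cycles, per the labels' protocols. Per the submitters' processing notes, the tools were HISAT2 2.1.0, SAMtools 1.8 and Subread 1.6.2 with its featureCounts, on build GRCm38. The authors deposited raw counts per gene, with no normalization, and log2 CPM values for 12849 genes. The deposited log2 values equalled edgeR's log CPM (TMM, prior count 2) of the counts to within 4.97e-14. The sources used here do not give the annotation, strand setting or treatment of multiply matching reads, and reads carry no molecular identifiers.

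The members and gene lists were chosen with earlier results of these data known. Counts were tested with edgeR 4.0.16 in R 4.3.3 (filterByExpr with minimum count 10, TMM, robust quasi-likelihood F test, all 9 libraries, no covariate). P-values were adjusted by Benjamini-Hochberg over 12849 genes, with a threshold of 0.05. Single values were tested by exact two-sided permutation of libraries (126 splits) and adjusted over 29 values, with scipy 1.17.1 and numpy 2.4.6. The scripts were tested on simulated data. Segments named are the 12 of highest mean share, the 12 called of smallest p, and the largest of each library; of each list, up to 4 genes of smallest p. A result that the rule names is not reported here. Segment sequences, types and positions are from GENCODE M21. Total counts were 7368604 to 7937579 in WT and 4492160 to 6647650 in p52Ki. The 1 to 4 replicate numbers shared by the genotypes are not said to pair the libraries. Correlations of same-numbered deviations were -0.042, -0.0172, -0.0131 and -0.00898, which gave no sign of pairing but cannot exclude a shared batch. Alternatives were DESeq2 1.42.0 and its size factors, limma-voom (limma 3.58.1), other filters, library sizes without immunoglobulin genes, all Igkv genes, the largest segment left out, the replicate block, each library left out, and, added after seeing the data, shares per base of exon and Igkv1-135 left out of every library.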

Additional observations from a re-analysis of the deposited data

Results flagged for a closer look

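A single library stood apart from the rest of its genotype by Dixon's test at the 95% level in 10 of 110 comparisons, where chance flags about 1 in 20. Among family shares, the Igkv1 family was low in WT replicate 1 (10.3% of Igkv counts, others 13.5% to 14.0%) and the Igkv10 family was high in WT replicate 3 (5.26%, others 2.97% to 3.25%). The Igkv16 family, which is the single segment Igkv16-104, was high in p52Ki replicate 1 (8.25%, others 0.789% to 1.6%), and the Igkv19 family in p52Ki replicate 4 (7.75%, others 3.24% to 4.31%). Among segment levels, 3 WT libraries stood high: Igkv1-117 at 76.1 CPM in replicate 3 (others 24.3 to 32.7), Igkv8-21 at 11.1 CPM in replicate 2 (others 5.12 to 5.71), and in replicate 4 both Igkv6-23 at 87.7 CPM (others 28.2 to 36.8) and Igkv4-61 at 4.51 CPM (others 2.77 to 3.02). In p52Ki replicate 1, Igkv4-59 stood at 221 CPM (others 59.4 to 104) and Igkv16-104 at 338 CPM (others 33.7 to 59.3).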

How the results depend on the processing

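Of the 34 segments called higher, the count was 36 with DESeq2 size factors, 34 with no filter on low counts, 38 at 10 CPM in 4 libraries, 35 without immunoglobulin genes in the library size, 28 with limma-voom, 53 with DESeq2 and 22 to 30 with a library left out (22 without p52Ki replicate 1); 0 were called lower in each. With the replicate number as a block, which is not said to pair the libraries, 4 were called (Igkv1-135, Igkv1-110, Igkv6-15 and Igkv8-21). Permutation within the block cannot go below 0.125, which is what the difference in summed Igkv CPM (2440.3) gave. In that setting 0 of the 2 family shares with an unadjusted p below 0.05 passed. That number was 1 with the largest segment of each library left out (Igkv16 then -0.185 percentage points); this removes Igkv1-135 from 4 of 5 p52Ki but 2 of 4 WT libraries, so by construction it lowers the Igkv1 and J-strand shares more in p52Ki. It was 2 with Igkv1-135 left out of every library. The difference in effective number, 0.58, ran from -1.77 to 2.21 with a library left out, was -1.39 as inverse Simpson index and 6.54 as segments seen at equal depth (exact permutation p = 0.00794). Inverse Simpson ran from -3.86 to 0.8 with a library left out. Family differences near 0 changed sign with a library left out, in percentage points: Igkv2 -0.212 to 0.421 (block -0.0128), Igkv3 -0.465 to 0.776, Igkv6 -0.297 to 1.61, Igkv10 -0.521 to 0.292, Igkv11 -0.016 to 0.143, Igkv13 -0.0102 to 0.38, Igkv14 -0.0795 to 0.559, Igkv15 -0.241 to 0.134 and Igkv19 -0.55 to 1.6. The log2 fold change of Igkv4-55 ran from -0.26 (without p52Ki replicate 1) to 0.7 with a library left out and was -0.05 without WT replicate 3. The cause of these changes was not tested. Differences in rare segments are limited by the 7630 Igkv counts of the shallowest library.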
